A study of Mus musculus with 6 samples.

Results

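The collagen genes of sorted mouse astrocytes were described. Protein-coding genes whose symbol has the form of a collagen alpha chain (Col, a type number, a and a chain number) were taken where a read was counted in at least 3 of the 6 samples. This left 43 genes of 44 with such a symbol, out of 45777 genes listed in the table. Col6a6, with counts in 2 samples, fell outside, and Col15a1 and Col28a1, with counts in 3 samples each, were just inside. By the structure of the mature protein, 11 members were grouped as fibrillar collagens (types I, II, III, V, XI, XXIV and XXVII), 8 as basement membrane collagens (types IV, XV and XVIII) and 24 as other collagens.

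A collagen molecule is a rope of alpha chains wound around one another, and which chains combine defines the type. Fibrillar collagens assemble into banded fibrils, type IV forms the meshwork of basement membranes, and the remaining types decorate fibrils, form other networks or stay in the cell membrane. In the brain, fibrillar collagen is largely confined to the meninges and to larger vessels, while endothelial cells, pericytes and astrocytes share the vascular basement membrane. Collagen chains are hydroxylated and glycosylated in the endoplasmic reticulum and folded with the help of the collagen chaperone Hsp47 (Serpinh1), and many are trimmed at their ends after secretion and crosslinked.

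Both groups were male mice of the genotype Aldh1l1-CreERT2; tdTomato fl/fl, which the labels call WT, and both received tamoxifen (75 mg/kg for 5 days), so that cells using the promoter of the astrocyte gene Aldh1l1 made the red protein tdTomato. At 8 weeks of age, the STZ group was given 1 injection of streptozotocin (150 mg/kg), which destroys insulin-producing beta cells, and the Vehicle group was given citrate buffer. The reporter therefore marks any cell in which this promoter was active. Cells positive for tdTomato were sorted from the brain 21 days after the injection, with 3 mice pooled per sample and 3 samples per group, and the comparison asked how high blood glucose alters astrocyte transcripts. STZ mice were selected for hyperglycemia, so the drug itself and high glucose cannot be told apart.

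Total counts were 52529048 to 58749115 per sample, so that 3 counts correspond to 0.0511 to 0.0571 CPM (counts scaled to library size). Astrocyte markers (8 genes) summed to 12765 to 15434 TPM (a level corrected for transcript length and depth) in the Vehicle samples and 12628 to 14054 TPM in the STZ samples. Transcripts typical of other cells were present too. Oligodendrocyte markers (6 genes) summed to 472 to 1538 TPM in Vehicle samples and to 553 to 2351 TPM in STZ samples. Microglia markers summed to 497 to 776 and 504 to 685 TPM, and ependymal markers to 208 to 553 and 457 to 721 TPM. Choroid plexus markers (8 genes, led by Ttr) summed to 10531 TPM in Vehicle sample 1 and to between 15866 and 29699 TPM in the other samples. Endothelial markers summed to 75.2 to 256.8 TPM in Vehicle samples and to 266.9 to 500.4 TPM in STZ samples, and pericyte and smooth muscle markers to 90.5 to 135.4 and 133.3 to 182.6 TPM. Vehicle sample 1 had the lowest normalised CPM of the 6 samples for 9 of 10 endothelial, 8 of 9 fibroblast and 6 of 6 ependymal markers tested. It was also lowest for 7 of 10 pericyte and smooth muscle and 4 of 8 choroid plexus markers. STZ sample 1 had the highest for 10 of 10 endothelial, 6 of 6 ependymal and 6 of 10 pericyte and smooth muscle markers. Among the 36 collagen genes with counts in every sample, 13 were lowest in Vehicle sample 1 and 13 were highest in STZ sample 1. In such bulk samples, fewer cells of a type and less RNA per cell cannot be told apart.

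Collagen transcripts were dominated by Col9a3, the alpha 3 chain of type IX collagen, which sits on the surface of type II fibrils in cartilage (gene number 12841, chromosome 2, 180598102 to 180622192 on GRCm38.p6). Its level was 158, 200 and 204 TPM in the Vehicle samples and 165, 130 and 176 TPM in the STZ samples. This was 48.4% to 59.8% of all collagen TPM in a sample, and 950 genes had a higher mean TPM than Col9a3. The gene overlaps Tcfl5, whose own level was only 0.078 to 0.356 TPM. Vehicle sample 3 was highest and Vehicle sample 2 next for Col9a3 and for the choroid plexus sum. Vehicle sample 1 and STZ sample 2 were the lowest in each, in opposite order. The part of choroid plexus cells in the Col9a3 values was not tested. The 43 members together summed to 267.6 to 345.6 TPM, 21 of them had a mean of at least 1 TPM, and 6 reached 10 TPM. Below Col9a3 came Col8a2 at a mean of 15.6 TPM, Col1a2 at 14.8 TPM, Col11a2 at 14.6 TPM, Col16a1 at 14.0 TPM, Col8a1 at 13.2 TPM and Col5a3 at 9.68 TPM. The neighbours in this order from Col8a2 to Col8a1 overlapped in their ranges over the 6 samples. With Col9a3, these 7 genes made up 76.5% to 85.5% of collagen TPM.

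**Figure D1:**
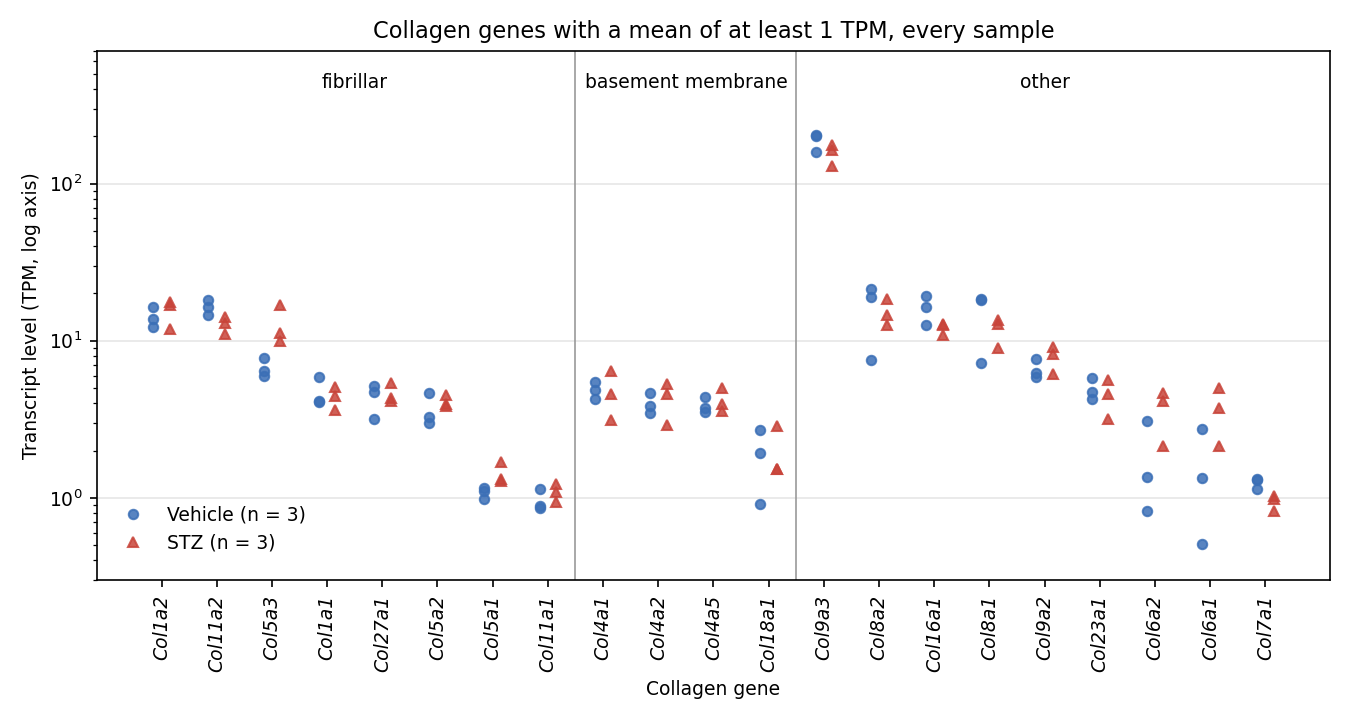
Level of the 21 collagen genes with a mean of at least 1 TPM, by class, on a log axis; circles are the 3 Vehicle samples and triangles the 3 STZ samples. Col9a3 stands above every other collagen in all 6 samples, at 130 to 204 TPM, and the STZ samples lie above the Vehicle samples for Col5a3.

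The chains of a type were far from equal at the transcript level. Type IX collagen is built from the alpha 1, alpha 2 and alpha 3 chains, yet Col9a3 was 24.96 ± 7.73-fold (SD over 6 samples) above Col9a2 in TPM, and Col9a2 was 12.8 ± 7.12-fold above Col9a1. Within type XI, which nucleates fibrils, Col11a2 was 14.5 ± 3.20-fold above Col11a1, and it was 32.3 ± 6.81-fold above Col2a1, whose product is also built into type XI. Type I collagen, the main collagen of most connective tissue, is assembled from more alpha 1 than alpha 2 chains, whereas Col1a2 was 3.31 ± 0.657-fold above Col1a1 here, at 11.8 to 17.7 TPM against 3.65 to 5.91 TPM.

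Neighbouring collagen genes were close in level in 3 of 6 pairs looked at. Col4a1 and Col4a2, which encode the chains of the common type IV molecule and whose transcribed regions start against each other on chromosome 8, had a ratio of 1.16 ± 0.0993 (range 1.01 to 1.27). Col6a1 and Col6a2 on chromosome 10 had a ratio of 0.912 ± 0.159, and the type VIII chains Col8a2 and Col8a1, which are on different chromosomes, one of 1.19 ± 0.179. Col4a3 and Col4a4, whose regions overlap by 114 bases on chromosome 1, were close on average. Their mean ratio was 1.01 with a range of 0.621 to 1.75. The other neighbouring pairs were far apart in level. Col4a5 and Col4a6, 1274 bases apart on the X chromosome, differed 34.6 ± 16.5-fold. Col3a1 and Col5a2, 24624 bases apart on chromosome 1, had means of 0.759 and 3.87 TPM. Col9a1 and Col19a1, 4944 bases apart on the same chromosome, had means of 0.786 and 0.0139 TPM. For overlapping pairs, reads in the shared bases cannot be assigned, because no source used here says that strand was considered in counting.

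Between STZ and Vehicle, single collagens differed in both directions. In normalised CPM, the fibrillar chains Col5a3 and Col5a1, the type IX chain Col9a1 and the fibril-associated Col12a1 were higher in every STZ sample than in any Vehicle sample. Col11a2, Col16a1, Col7a1, Col14a1, Col17a1 and Col20a1 were lower in every STZ sample. With edgeR's quasi-likelihood test, 0 of 36 tested collagens were called (a fold change over 1.5 at a Benjamini-Hochberg adjusted p under 0.05), where 0.0224% of all 22337 tested genes were. At an unadjusted p under 0.05 there were 8 of 36 (22.2%, against 11.3% of all genes), of which 3 were higher in STZ (5.63% of all genes) and 5 were lower (5.65% of all genes). Without Vehicle sample 2 or without STZ sample 2 this count was 5. With DESeq2, 2 of 36 collagens were called, Col5a3 and Col9a1, where 1.05% of all genes were, and 9 had an unadjusted p under 0.05 (10.3% of all genes). Normalised CPM did not overlap between the groups for 10 of 36 collagens, against 18.5% of all genes. Of these, 4 were higher in STZ (8.64% of all genes) and 6 were lower (9.85% of all genes). The 7 members with a 0 in some sample were not tested.

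The median log2 fold change was 0.11 over the 36 tested collagens and 0.01 over all genes. It was 0.15 for 10 fibrillar, 0.08 for 7 basement membrane and 0.10 for 19 other collagens, and 21 of 36 values were positive (51.9% of all genes were). Summed TPM did not separate the groups in any class. Fibrillar collagens summed to 53.0 ± 3.60 TPM in Vehicle and 57.9 ± 9.48 TPM in STZ samples (mean ± SD, n = 3 each), basement membrane collagens to 16.3 ± 0.507 and 16.9 ± 4.38 TPM, and other collagens to 254 ± 37.0 and 222 ± 25.6 TPM. In each class the difference of the means was smaller than the larger SD.

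**Figure D2:**
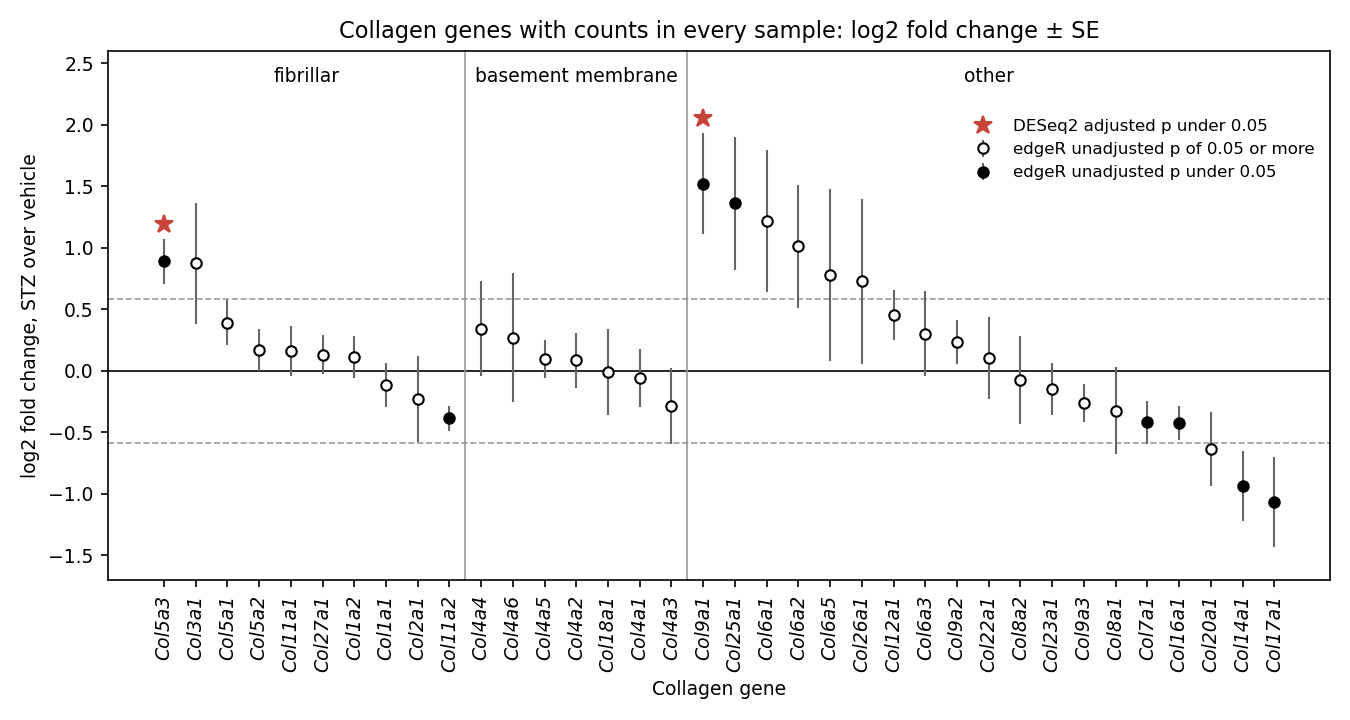
Log2 fold change (STZ over Vehicle, edgeR) with its standard error for the 36 collagens with counts in all 6 samples, by class; filled circles have an unadjusted p under 0.05, stars an adjusted p under 0.05 with DESeq2, and dashed lines mark a fold change of 1.5. Values run from -1.06 for Col17a1 to 1.52 for Col9a1. No filled circle lies among the 7 basement membrane collagens, where 11.3% of all genes had an unadjusted p under 0.05.

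Col5a3 encodes the alpha 3 chain of type V collagen, a minor fibrillar collagen that is built into type I fibrils and sets their diameter (gene number 53867, chromosome 9, 20770050 to 20815117). It was at 7.73, 6.45 and 5.96 TPM in the Vehicle samples and at 16.8, 11.3 and 9.90 TPM in the STZ samples. All STZ values thus lay above all Vehicle values. The log2 fold change was 0.89 ± 0.182 (SE), with an adjusted p of 0.214 by edgeR (unadjusted p = 0.00143) and of 0.000801 by DESeq2. Leaving out 1 sample at a time gave 0.66 to 1.02 in edgeR, and the DESeq2 call held in each of these 6 fits, with adjusted p from 0.000101 to 0.0351. The other type V chains were closer between the groups. Col5a1, the chain shared by most type V molecules, was at 0.986 to 1.16 TPM in Vehicle and 1.29 to 1.69 TPM in STZ samples (log2 fold change 0.39 ± 0.185, unadjusted p = 0.0688), and Col5a2 had a log2 fold change of 0.17 ± 0.171. In TPM, Col5a3 was 6.19 ± 0.732 times Col5a1 in Vehicle and 8.73 ± 1.12 times in STZ samples.

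Col9a1 (gene number 12839, chromosome 1, 24177589 to 24252738) was low, and its read counts were 34, 42 and 31 in the Vehicle samples and 168, 114 and 57 in the STZ samples. The levels were 0.359, 0.441 and 0.293 TPM and 1.58, 1.39 and 0.661 TPM, with STZ sample 3 nearest to the Vehicle samples. The log2 fold change was 1.52 ± 0.411, the largest among the tested collagens, with an adjusted p of 0.301 by edgeR and 0.0383 by DESeq2. The DESeq2 call rested on most samples. Its adjusted p was 0.101, 0.109 and 0.113 without Vehicle sample 1, 2 or 3, 0.456 without STZ sample 1, 0.266 without STZ sample 2 and 0.000725 without STZ sample 3. The partner chains did not share the difference. Col9a2 had a log2 fold change of 0.23 ± 0.178 and Col9a3 one of -0.26 ± 0.154, and the ratio of Col9a2 to Col9a1 was 18.7 ± 4.53 in Vehicle and 6.98 ± 1.97 in STZ samples.

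The sequence ahead of these genes is given because they were the collagens that DESeq2 called. Shown are bases 250 to 51 upstream of the first RefSeq start listed for each gene (GRCm38.p6), 5′ to 3′ on the gene's strand, for Col5a3 at chr9:20815118-20815317 (minus strand) and for Col9a1 at chr1:24177360-24177559 (plus strand, the first of 2 starts). Both stretches end ahead of the outermost annotated start, which is 20815117 for Col5a3 and 24177589 for Col9a1. For Col5a3 the last base shown lies directly ahead of it. Distances are counted from the listed start and not from these outermost starts. Capitals mark CCAAT and GGGCGG or their reverse complements.
Col5a3: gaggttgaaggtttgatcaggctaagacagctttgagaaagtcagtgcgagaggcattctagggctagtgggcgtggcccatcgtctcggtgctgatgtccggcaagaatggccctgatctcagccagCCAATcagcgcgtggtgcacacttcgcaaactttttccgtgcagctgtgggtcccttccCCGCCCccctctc
Col9a1: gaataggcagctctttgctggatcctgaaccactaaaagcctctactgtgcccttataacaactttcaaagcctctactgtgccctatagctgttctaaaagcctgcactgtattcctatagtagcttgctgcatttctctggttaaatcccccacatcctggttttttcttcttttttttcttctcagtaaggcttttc
The Col5a3 stretch held 1 CCAAT, starting 122 bases ahead of the start, and 1 GGGCGG on the opposite strand, starting 63 bases ahead, with 58% G and C. The Col9a1 stretch held neither and had 42% G and C. TATAAA was also searched on both strands and found in neither stretch. Over the same 200 bases of all 32851 RefSeq starts, CCAAT was found in 28.4%, GGGCGG in 24.6% and TATAAA in 9.14%. Among 37 such starts of 34 matched collagen genes the shares were 27% for CCAAT, 45.9% for GGGCGG and 10.8% for TATAAA.

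Among the other fibrillar collagens, Col11a2 was lower in STZ. Its level was 18.2, 16.4 and 14.6 TPM in the Vehicle samples and 14.2, 13.0 and 11.04 TPM in the STZ samples, so that the groups did not overlap but the lowest Vehicle and the highest STZ sample lay close together. The log2 fold change was -0.39 ± 0.1003, with an adjusted p of 0.289 by edgeR and 0.0876 by DESeq2. Col11a1, its partner, had a log2 fold change of 0.16 ± 0.203, and the ratio of Col11a2 to Col11a1 in TPM was 17.1 ± 1.67 in Vehicle and 11.8 ± 1.25 in STZ samples. The type I chains overlapped between the groups, with log2 fold changes of 0.11 ± 0.171 for Col1a2 and -0.11 ± 0.178 for Col1a1. Col27a1, a fibrillar collagen known from cartilage, was at 3.17 to 5.14 TPM in Vehicle and 4.16 to 5.42 TPM in STZ samples. Col2a1 stayed under 1 TPM in every sample, and Col24a1 had at most 10 counts.

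Of the 7 tested basement membrane collagens, 0 had an unadjusted p under 0.05 by edgeR (11.3% of all genes) or by DESeq2 (10.3% of all genes). Their log2 fold changes ran from -0.29 to 0.34. Col4a1 was at 5.43, 4.25 and 4.89 TPM in Vehicle and 6.43, 4.59 and 3.14 TPM in STZ samples (log2 fold change -0.06 ± 0.236). Col4a2 had the same highest and lowest STZ sample, at 5.34, 4.57 and 2.899 TPM (0.08 ± 0.221). Col4a5 was the next most abundant type IV chain, at a mean of 4.02 TPM (0.10 ± 0.153). The remaining type IV chains, Col4a3, Col4a4 and Col4a6, had means under 1 TPM. Col18a1, whose C-terminal end is released as endostatin, was at 0.916, 2.68 and 1.93 TPM in Vehicle and 2.86, 1.54 and 1.53 TPM in STZ samples (-0.01 ± 0.351). The spread within each group thus exceeded the difference between the group means for Col4a1, Col4a2 and Col18a1.

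Of the other collagens, Col16a1, a minor collagen that associates with fibrils and binds integrins, was at 19.1, 16.3 and 12.6 TPM in Vehicle and 12.7, 12.7 and 10.8 TPM in STZ samples. On this scale Vehicle sample 3 lay just below the higher STZ samples, while the groups did not overlap in normalised CPM. The log2 fold change was -0.42 ± 0.138 (unadjusted p = 0.0172, adjusted p = 0.350 by edgeR). Col16a1 overlaps Gm12963 and Gm46871, which were at 0.969 to 1.67 TPM and 0.794 to 1.48 TPM. Col14a1, which binds decorin on fibrils, had counts of 59, 92 and 84 in Vehicle and 43, 38 and 53 in STZ samples (-0.94 ± 0.283, unadjusted p = 0.0116). Col7a1, the collagen of anchoring fibrils in skin, was at 1.33, 1.30 and 1.14 TPM and at 0.980, 0.829 and 1.02 TPM (-0.42 ± 0.176, unadjusted p = 0.0466). The adjusted p by edgeR was 0.326 for Col14a1 and 0.437 for Col7a1. Col20a1, with 88, 98 and 91 counts in Vehicle and 92, 45 and 59 in STZ samples, and Col12a1, with 109, 87 and 113 counts and 162, 155 and 144 counts, were named after their values were seen. Their groups separated only after normalisation in the case of Col20a1, and their log2 fold changes were -0.63 ± 0.299 (unadjusted p = 0.0690) and 0.45 ± 0.203 (unadjusted p = 0.0579).

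The membrane-spanning collagens differed among themselves. Col17a1, a hemidesmosome collagen in skin, was at 0.907, 1.48 and 1.53 TPM in Vehicle and 0.841, 0.359 and 0.690 TPM in STZ samples, with Vehicle sample 1 and STZ sample 1 close to each other (log2 fold change -1.06 ± 0.366, unadjusted p = 0.0209, DESeq2 adjusted p = 0.0983). Col25a1, known in neurons and as a component of amyloid plaques, was at 0.139, 0.238 and 0.508 TPM and at 0.945, 0.993 and 0.394 TPM. Vehicle sample 3 and STZ sample 3 overlapped (1.36 ± 0.540, unadjusted p = 0.0374), and the log2 fold change was 1.003 without Vehicle sample 1 and 2.04 without Vehicle sample 3. Col23a1 was the most abundant of the 4, at a mean of 4.69 TPM, and had a log2 fold change of -0.15 ± 0.214. Col13a1 was not tested because Vehicle sample 2 had no count. It had 6, 0 and 7 counts in Vehicle and 46, 20 and 29 counts in STZ samples, and edgeR without the filter on low counts gave a log2 fold change of 2.71 ± 0.761 (adjusted p = 0.388). It was singled out after its values were seen, and it overlaps 4 other annotated genes.

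Chains of type VI collagen, the beaded filaments around fibroblasts, and of type III varied more within the groups than most members. Col6a1 was at 0.510, 1.33 and 2.73 TPM in Vehicle and 3.74, 5.03 and 2.13 TPM in STZ samples, and Col6a2 at 0.822, 1.36 and 3.08 TPM and at 4.13, 4.65 and 2.14 TPM. Vehicle sample 1 was lowest and STZ sample 2 highest for both, and Vehicle sample 3 lay above STZ sample 3. The log2 fold changes were 1.22 ± 0.577 for Col6a1 (unadjusted p = 0.0696) and 1.01 ± 0.500 for Col6a2 (unadjusted p = 0.0803), and they were 0.80 and 0.66 without Vehicle sample 1 and 1.96 and 1.70 without Vehicle sample 3. Col6a3, a chain of the classical type VI molecule, was at 0.0512 to 0.114 TPM, so that Col6a1 exceeded it 28.4 ± 13.9-fold. Col3a1, at 0.272, 0.399 and 0.912 TPM and at 0.831, 1.44 and 0.702 TPM, had the same lowest and highest samples (0.87 ± 0.492, unadjusted p = 0.116).

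Marker sums of fibroblasts and of endothelial cells were lowest in Vehicle sample 1 as well. The 10 fibroblast markers summed to 12.6, 26.8 and 39.5 TPM in Vehicle and 38.8, 48.4 and 28.0 TPM in STZ samples, with Twist1 at 0 in Vehicle sample 1, and 1 of 9 tested (11.1%, against 11.3% of all genes) had an unadjusted p under 0.05 by edgeR, 6 were positive and 3 (Lum, Slc6a13 and Slc22a6) negative in log2 fold change, and the groups overlapped for each. The 10 endothelial markers summed to 75.2, 107.5 and 256.8 TPM and to 500.4, 370.5 and 266.9 TPM, with none at 0, and 9 of 10 had an unadjusted p under 0.05, all higher in STZ. For pericyte and smooth muscle markers this was 5 of 10 (5.63% of all genes were higher at this p), and DESeq2 called 5 (1.05% of all genes). The part of these cells in the values of Col6a1, Col6a2 and Col3a1 was not tested.

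Col8a1 and Col8a2, the chains of the short, network-forming type VIII collagen of vessel walls and of Descemet's membrane, did not differ between the groups beyond their spread. Col8a1 was at 7.24, 18.4 and 18.1 TPM in Vehicle and 12.9, 9.05 and 13.6 TPM in STZ samples. Col8a2 was at 7.56, 19.0 and 21.2 TPM and at 18.5, 12.5 and 14.7 TPM. For both chains Vehicle sample 1 was lowest, Vehicle samples 2 and 3 were highest, and STZ sample 2 was the lowest of its group. The summed choroid plexus markers, of which Ttr is the bulk, were at 10531, 28478 and 29699 TPM in Vehicle and 19654, 15866 and 26796 TPM in STZ samples. One by one, 4 of the 8 markers were lowest in Vehicle sample 1 and 4 in STZ sample 2, and 5 were highest in Vehicle sample 2, 2 in Vehicle sample 3 and 1 in STZ sample 3 (normalised CPM). None was at 0, and 0 of 8 had an unadjusted p under 0.05 by edgeR (11.3% of all genes) or DESeq2 (10.3% of all genes). All 8 markers had a negative log2 fold change (48.1% of all genes), from -0.70 to -0.03. Their part in the type VIII values was not tested. Without Vehicle sample 1, the log2 fold change of Col8a1 went from -0.32 to -0.66 and that of Col8a2 from -0.08 to -0.42, with adjusted p of 0.331 and 0.457 by edgeR. Over all 6 fits without a sample the values ran from -0.66 to -0.13 for Col8a1 and from -0.42 to 0.19 for Col8a2.

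**Figure D3:**
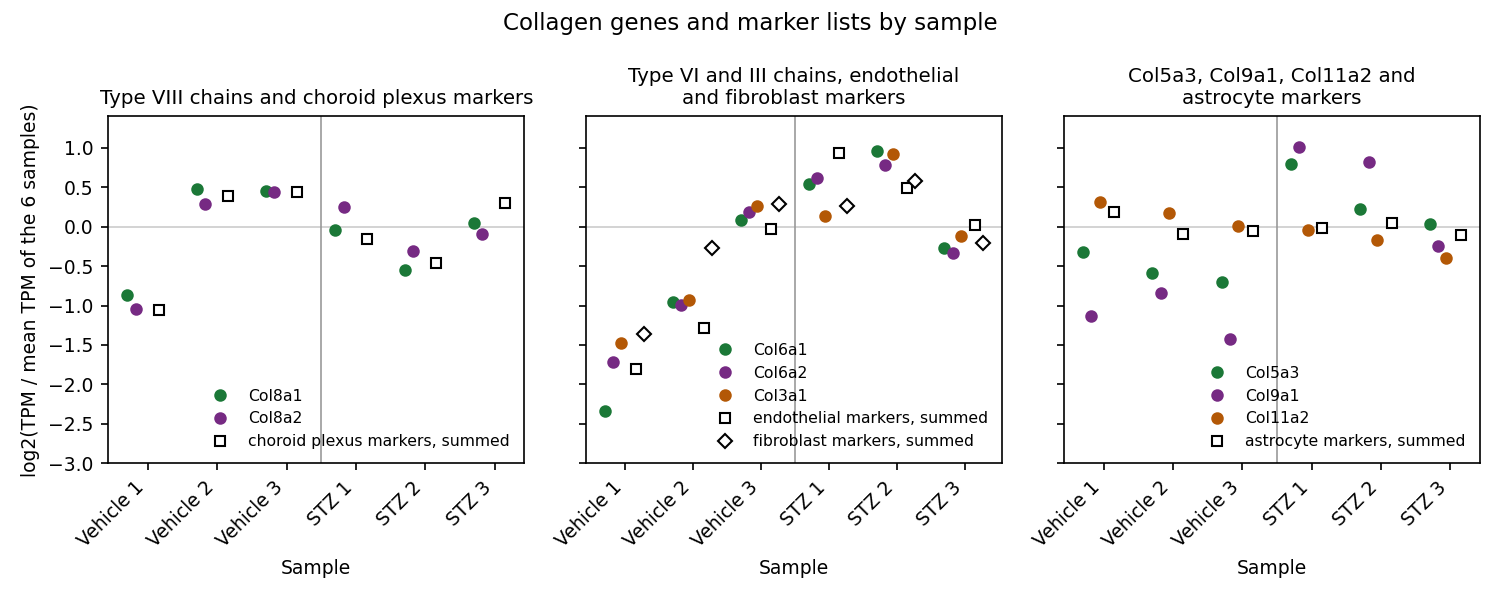
Levels of collagens (filled circles) and summed marker lists (open symbols) in each sample, as log2 of TPM over the mean TPM of the 6 samples; the vertical line divides Vehicle from STZ samples. Col8a1, Col8a2 and the choroid plexus sum, most of it Ttr, are lowest in Vehicle sample 1, as are Col6a1, Col6a2, Col3a1 and the endothelial and fibroblast sums. Col5a3 and Col9a1 lie higher in all STZ samples, and the astrocyte sum is between 12628 and 15434 TPM.

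Mean marker sums of vessel cells and of ependymal cells differed in the same direction as Col5a3 and Col9a1. Among STZ samples, sample 1 was highest and sample 3 lowest for both genes, for the endothelial sum and for the pericyte and smooth muscle sum, which was 182.6, 156.1 and 133.3 TPM. The ependymal sum had this order too, at 720.6, 583.5 and 457.4 TPM in STZ, against 207.9, 385.2 and 553.2 TPM in Vehicle samples. The 5 pericyte and smooth muscle markers that DESeq2 called were higher in every STZ sample (8.64% of all genes were). Their log2 fold changes were 2.65 for Tagln, 1.43 for Myh11, 1.32 for Higd1b, 1.30 for Acta2 and 1.02 for Rgs5. The markers of this list that were not called had overlapping groups. Their log2 fold changes were -0.08 for Pdgfrb, 0.07 for Vtn, 0.50 for Kcnj8, 0.75 for Cnn1 and 0.87 for Abcc9. Among Vehicle samples, sample 3 was lowest for both genes in TPM and highest for the endothelial, fibroblast, ependymal, and pericyte and smooth muscle sums. Of the 8 astrocyte markers, 3 were lower in every STZ sample in normalised CPM (9.85% of all genes were). These were Aqp4 (log2 fold change -0.48, DESeq2 adjusted p = 0.0169), Aldh1l1 (-0.22) and Slc1a2 (-0.11). The log2 fold change was positive for 3 of the 8, Aldoc (0.16), Sox9 (0.02) and Gfap (0.0006), and negative for 5. The part of these cells in the values of Col5a3 and Col9a1 was not tested.

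The genes that act on collagen were compared next, from lists of 59 genes grouped by step, of which 58 were tested. With edgeR, 1 of 58 was called (0.0224% of all genes), the chaperone gene Serpinh1. An unadjusted p under 0.05 was found for 11 of 58 (11.3% of all genes). Of these, 3 were higher (5.63% of all genes) and 8 lower in STZ (5.65% of all genes). DESeq2 called 2 (1.05% of all genes), Serpinh1 and Pxdn. Normalised CPM did not overlap between the groups for 15 of 58, 3 higher (8.64% of all genes) and 12 lower (9.85% of all genes). The median log2 fold change was -0.06.

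Serpinh1 encodes Hsp47, which binds the collagen helix in the endoplasmic reticulum and releases it in the Golgi. It was at 177, 153 and 158 TPM in the Vehicle samples and at 98.8, 99.1 and 94.1 TPM in the STZ samples, with a narrow spread within each group and a wide gap between them. It fell with a log2 fold change of -0.76 ± 0.0688 and an adjusted p of 0.0377 by edgeR and 1.76e-11 by DESeq2. Leaving out any 1 of the 6 samples kept the log2 fold change between -0.81 and -0.72 but ended the edgeR call. The adjusted p was then 0.0788, 0.198 and 0.105 without Vehicle sample 1, 2 or 3 and 0.248, 0.241 and 0.10005 without STZ sample 1, 2 or 3. DESeq2 called Serpinh1 in all of these fits, with adjusted p up to 3.60e-09. The other 7 genes of folding and export had log2 fold changes of at most 0.30 in size. Sec13, a coat protein of export vesicles, was at 216 to 248 TPM in Vehicle and 226 to 235 TPM in STZ samples.

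Of the 15 genes that modify collagen chains, 13 had a negative log2 fold change (48.1% of all genes did) and 4 had an unadjusted p under 0.05 by edgeR, all lower in STZ (5.65% of all genes). Plod1, a lysyl hydroxylase, was at 142, 110 and 119 TPM in Vehicle and 100.1, 98.5 and 94.6 TPM in STZ samples (log2 fold change -0.35 ± 0.0892, unadjusted p = 0.00475). The prolyl hydroxylase subunit genes P4ha3 and P4hb had log2 fold changes of -0.34 ± 0.123 and -0.18 ± 0.0729, and P3h3, of the prolyl 3-hydroxylase family, one of -0.25 ± 0.0921. P4hb, which also serves as a general disulfide isomerase, was the most abundant of these 4 at a mean of 339 TPM. Ppib, a proline isomerase of collagen folding, was at a mean of 524 TPM and had a log2 fold change of -0.13 ± 0.0792. None of these 15 genes was called by edgeR (0.0224% of all genes) or DESeq2 (1.05% of all genes).

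Of 6 crosslinking enzymes, edgeR called 0 (0.0224% of all genes) and DESeq2 called 1 (1.05% of all genes). The log2 fold change was negative for 5 (48.1% of all genes) and positive for 1. At an unadjusted p under 0.05 by edgeR, 2 were lower (5.65% of all genes) and 1 was higher in STZ (5.63% of all genes). Pxdn, the peroxidase that forms the sulfilimine bonds of type IV collagen, was at 7.11, 13.2 and 7.80 TPM in Vehicle and 7.10, 5.80 and 6.20 TPM in STZ samples, with Vehicle sample 2 above the rest. Its log2 fold change was -0.61 ± 0.163, with an adjusted p of 0.301 by edgeR and 0.0330 by DESeq2. The DESeq2 adjusted p was 0.0894 without Vehicle sample 2, 0.238, 0.219 and 0.0661 without STZ sample 1, 2 or 3, and 0.00693 and 0.0181 without Vehicle sample 1 or 3. Loxl1, of the lysyl oxidase family, had a log2 fold change of -0.42 ± 0.164 (unadjusted p = 0.0354). Lox itself had 14, 15 and 38 counts in Vehicle and 55, 58 and 51 counts in STZ samples (1.18 ± 0.392, unadjusted p = 0.0179, adjusted p = 0.355 by edgeR). Loxl3, the most abundant of the list at a mean of 27.5 TPM, had a log2 fold change of -0.17 ± 0.0887.

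Among 12 genes of the matrix that bind collagen, Sparc was the most abundant at a mean of 1557 TPM. It was at 1422, 1221 and 1256 TPM in Vehicle and 2208, 1732 and 1501 TPM in STZ samples, with no overlap (log2 fold change 0.44 ± 0.134, unadjusted p = 0.0118, DESeq2 adjusted p = 0.0635). Ccn2, a matricellular protein also known as CTGF, was at 0.698, 2.68 and 3.44 TPM and at 13.0, 7.93 and 5.89 TPM (1.93 ± 0.550, unadjusted p = 0.0087, adjusted p = 0.306 by edgeR). Vehicle sample 1 was lowest and STZ sample 1 highest for Ccn2. In normalised CPM, Vehicle sample 1 was lowest for 9 of 10 endothelial, 6 of 6 ependymal and 7 of 10 pericyte and smooth muscle markers. STZ sample 1 was highest for 10 of 10, 6 of 6 and 6 of 10 of them. The part of these cells in the Ccn2 values was not tested. Nid2, which links laminin to type IV collagen, had overlapping groups and a log2 fold change of -0.44 ± 0.157 (unadjusted p = 0.0234). Agrn, a proteoglycan of basement membranes, had one of -0.05 ± 0.141.

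Neither the 8 genes of procollagen processing nor the 9 tested genes of collagen receptors and uptake had a member at an unadjusted p under 0.05 by edgeR (11.3% of all genes). DESeq2 gave 1 in each list (10.3% of all genes). Bmp1, the proteinase that removes the C-terminal propeptide, had a log2 fold change of -0.23 ± 0.106. Its enhancer Pcolce was at 51.3, 120 and 108 TPM in Vehicle and 61.5, 56.2 and 88.0 TPM in STZ samples, lowest in Vehicle sample 1. The beta 1 integrin Itgb1 was at 61.9 to 68.0 TPM in Vehicle and 63.6 to 66.6 TPM in STZ samples, and the collagen receptor kinase Ddr1 had a log2 fold change of 0.03 ± 0.125.

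**Figure D4:**
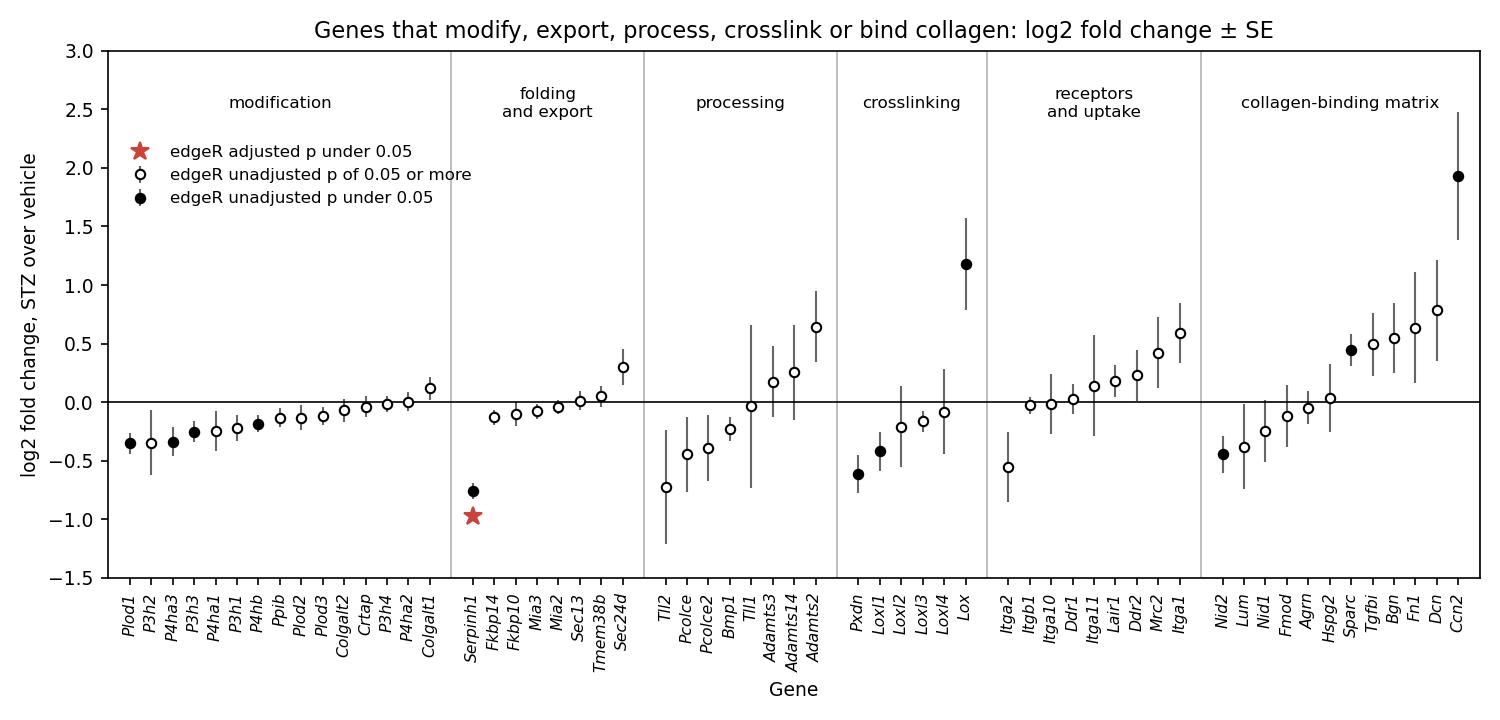
Log2 fold change (STZ over Vehicle, edgeR) with its standard error for 58 genes that modify, fold and export, process, crosslink, receive or bind collagen; filled circles have an unadjusted p under 0.05 and the star an adjusted p under 0.05. Serpinh1 at -0.76 carries the star, 13 of the 15 modification genes lie below 0, and Ccn2 at 1.93 is the highest value.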

How the data were processed

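RNA sequencing of sorted tdTomato-positive cells was analysed for 3 Vehicle and 3 STZ samples, each a pool of 3 mice. Per the labels, polyadenylated RNA was sequenced. The submitters' processing notes name Trimmomatic 0.38, HISAT2 2.1.0, StringTie 2.1.3b and SAMtools 1.9, and the paper's methods name the mouse genome mm10. The authors deposited a whole-number read count per gene without normalization, an FPKM value (fragments per transcript length and library size) and a TPM value made by the authors. Strand use in counting is not given in the sources used here.

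The 22337 genes with a count in all 6 samples were compared between the groups in R 4.3.3 by the two-sided quasi-likelihood test of edgeR 4.0.16, with TMM scaling, no term besides group, and Benjamini-Hochberg adjustment over all of them. The standard error was the log2 fold change divided by the root of the F statistic. DESeq2 1.42.0, limma 3.58.1 on log2(TPM + 1) and log2(TPM + 0.1), edgeR with the size factors of DESeq2, with filterByExpr, with robust fitting and with no filter, the replicate number as a block and leaving out each sample were alternatives. DESeq2 without each sample was added after seeing the data. Normalised CPM is the read count scaled to the TMM-adjusted library size. Procedures were tested on simulated data. Positions are those of RefSeq on GRCm38.p6, matched by gene number for all 43 members.

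Collagens with a mean of at least 1 TPM or an unadjusted edgeR p under 0.05 (or a DESeq2 adjusted p under 0.05) are named, with those at the edge of the count rule. From the other lists, genes with an unadjusted p under 0.05 and at most 2 of the highest TPM are named. Further members were named after their values were seen. The members and lists were chosen with earlier results of these data known. The samples of a group are separate pools of mice, so p-values measure the spread between pools. The chi-square per gene between samples was 15.8 to 82.8, above sampling noise, and limits of detection cover counting error only. The other experiments of the study were not analysed here.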

Additional observations from a re-analysis of the deposited data

How the results depend on the processing

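Under the alternatives run, 33 of 44 genes named for their TPM or p-value kept the sign of their log2 fold change in every one. Cell type markers, neighbours of Col5a3 and members named after their values were seen were not among the 44. With DESeq2, 2 collagen genes and 2 genes of the collagen lists were called, against 0 and 1 with edgeR. Under the replicate block and under limma on log2(TPM + 1) and log2(TPM + 0.1), 0 genes of the lists were called. The count of called collagens was 0 under each other alternative with all samples and in each edgeR fit without a sample, in which 0 genes of the lists were called, and it was 1 to 5 in DESeq2 fits without a sample (1 to 8 for the lists). Collagens at an unadjusted p under 0.05 numbered 8, 10 with filterByExpr, 9 without a filter, 7 with limma, 6 under the block, 5 to 10 in edgeR without a sample and 6 to 15 in DESeq2 without a sample. Col18a1 turned from -0.01 to 0.071 under the block and to 0.087 and 0.153 with limma, and Col8a2 from -0.08 to 0.023, 0.041 and 0.052. The cause was not tested. Without a sample, Col18a1 ranged from -0.33 to 0.25, Col8a2 from -0.42 to 0.19, Col4a1 from -0.33 to 0.16, Col4a2 from -0.094 to 0.29, Col4a5 from -0.041 to 0.18, Col1a1 from -0.22 to 0.054, Col23a1 from -0.33 to 0.039, Sec13 from -0.044 to 0.076, Itgb1 from -0.078 to 0.0024, Ddr1 from -0.12 to 0.13 and Agrn from -0.17 to 0.079. The replicate numbers were not taken as pairing. Deviations of same-numbered samples from their group means correlated at -0.101, -0.162 and -0.184 over all tested genes, which cannot exclude pairing for some genes. Oligodendrocyte markers summed highest in sample 1 of both groups, at 1538 TPM in Vehicle and 2351 TPM in STZ. The SE of Sox10 was 0.596 without and 0.163 with the replicate block. With the replicate block Serpinh1 and Olfm2 each had an adjusted p of 0.517 by edgeR. Numbers in the titles and descriptions of the STZ samples differ. Genes near 3 counts in a sample are limited by depth.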

Other observations

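Near Col5a3 on chromosome 9 (20770050 to 20815117, GRCm38.p6), the gene Olfm2 (20667690 to 20746333), which encodes an olfactomedin-domain protein, was also higher in STZ. It lies 23716 bases away and was at 16.6, 20.1 and 18.4 TPM in Vehicle and 57.8, 43.2 and 46.5 TPM in STZ samples, with a log2 fold change of 1.36 ± 0.128 and an adjusted p of 0.0377 by edgeR and 4.09e-16 by DESeq2. The edgeR call ended without any 1 of the samples, with adjusted p from 0.0807 to 0.248 and log2 fold changes from 1.24 to 1.45, and with limma (0.0827 and 0.0688). The long noncoding RNA Gm39299, within the span of Olfm2, had a log2 fold change of 1.15 ± 0.351 (unadjusted p = 0.0120), and its reads cannot be told apart from those of Olfm2 without strand. The other tested genes within 150 kb of Col5a3 had log2 fold changes from -0.64 to 0.23. The lowest was the small RNA LOC115487308, with 6 to 18 counts. The highest was Eif3g (0.23 ± 0.0775, unadjusted p = 0.0187, adjusted p = 0.356 by edgeR), which was higher in every STZ sample (8.64% of all genes). Shfl and Angptl6 were lower in every STZ sample (9.85% of all genes). This stretch was looked at after the values of Col5a3 were seen.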
